A study of Mus musculus with 3 samples.

Results

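The genes described here are the 4 neuregulins, Nrg1, Nrg2, Nrg3 and Nrg4, and the 4 ErbB receptors, Egfr, Erbb2, Erbb3 and Erbb4. They were picked by name, as 8 of the 30559 genes counted, and all 8 were found once in the deposited tables. The counts came from single-nucleus RNA sequencing of neurospheres, floating clusters of neural stem cells grown from the subventricular zone of newborn mice and differentiated until 15 days in vitro (DIV). There were 3 libraries, 1 per condition, each made from a pool of about 15 cultures. The CBP-ablated library came from cells with the genotype CBPf/f and the p300-ablated library from cells with p300f/f, in which the methods describe removal of the floxed gene by a lentivirus carrying Cre and mCherry. CBP and p300 are lysine acetyltransferases that serve as transcriptional coactivators. The control cells are described as transduced with a lentivirus carrying RFP alone, and the mouse line they came from was not given. All 3 libraries also carry the treatment label tamoxifen, and nuclei were sorted for the red reporter, so the libraries hold transduced cells of a culture and not a tissue.

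Neuregulins are growth factors with an EGF-like domain, made mostly as membrane-bound precursors from which proteases release the active ligand. They bind ErbB3 or ErbB4, and the bound receptor pairs with another ErbB, most often ErbB2, which has no ligand of its own. EGFR binds a separate set of ligands that includes EGF and TGF-alpha, and ErbB3 has little kinase activity and signals through its partner. In the nervous system the family is known for its part in Schwann cell and oligodendrocyte development, in interneuron migration and synapse formation, and, for EGFR, in the proliferation of subventricular zone progenitors and in astrocyte differentiation.

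On GRCm38 the 8 genes differ widely in length, which matters because reads from introns were counted with those from exons. Nrg1 (ENSMUSG00000062991, chr8:31814551-32884029, minus strand) spans 1069 kb, Nrg3 (ENSMUSG00000041014, chr14:38368952-39473088, minus strand) spans 1104 kb and Erbb4 (ENSMUSG00000062209, chr1:68032186-69108059, minus strand) spans 1076 kb. Nrg2 (ENSMUSG00000060275, chromosome 18, minus strand) covers 180 kb, Egfr (ENSMUSG00000020122, chr11:16752203-16918158, plus strand) covers 166 kb and Nrg4 (ENSMUSG00000032311, chr9:55220222-55326844, minus strand) covers 107 kb. Erbb2 (ENSMUSG00000062312, chr11:98412470-98437716, plus strand) and Erbb3 (ENSMUSG00000018166, chr10:128567523-128589652, minus strand) are compact genes of 25.2 kb and 22.1 kb. Levels of different genes are therefore set side by side only after division by gene length. Fbxo22, which overlaps Nrg4 on the other strand and had 885 unique molecular identifiers (UMIs) against 214 for Nrg4, and Nrg3os, which overlaps Nrg3, could share reads with those genes, since the sources used here do not state how strand was used in counting.

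The control, CBP-ablated and p300-ablated libraries held 4884, 3017 and 4648 nuclei with 16312170, 12748336 and 18876682 UMIs. Levels are given as UMIs per 1000000 UMIs of the same nuclei (CPM), each with a 95% exact Poisson interval in parentheses. With 1 library per condition no test between conditions was possible, so the intervals cover counting error only and not the spread between cultures or nuclei, and pooled cultures cannot show it. Between 1 and 7 barcodes were shared by any pair of libraries. The nuclei were clustered with the 8 genes left out of the clustering, so that no class was defined by them, and 10 of 13 clusters were named from marker lists. All 7 neuron markers, all 7 microglia markers, all 8 astrocyte markers and all 7 oligodendrocyte markers set the cluster of that name apart. The astrocyte-like cluster held 1275 nuclei of the control library and 0 of either ablated library, so for this cluster the cell class and the library cannot be told apart. The level of a gene in microglia-like nuclei is given beside other classes as a rough guide to free RNA in that library. Microglia-like nuclei are shallow, at a median of 1151 UMIs, against 3754 in RGC/PSC-like nuclei, a class described below. With p300 ablated the 8 NPC/OPC markers summed to 6090 CPM in microglia-like nuclei and 1250 CPM in RGC/PSC-like nuclei. The guide is therefore no floor for deeper classes. Counted over the whole gene, the floxed genes could not check the deletion, with a log2 ratio to the control of 0.14 for Crebbp with CBP ablated and 0.02 for Ep300 with p300 ablated. No count over the deleted exon was made, and the completeness of recombination was not tested.

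Over all nuclei, Egfr was highest in the control library, Erbb3 in the CBP-ablated library and Nrg3 in the p300-ablated library. Erbb4 gave 42379 to 62009 UMIs per library and is measured most closely, whereas Nrg4, Erbb2 and Erbb3 gave at most 434. Erbb4 stood at 3801 CPM (3772 to 3831) in the control, 3324 CPM (3293 to 3356) in CBP-ablated nuclei and 3216 CPM (3190 to 3242) in p300-ablated nuclei. Egfr was counted at 373 CPM (363 to 382) in the control, 91.5 CPM (86.3 to 96.9) in CBP-ablated nuclei and 113 CPM (108 to 118) in p300-ablated nuclei. The control library was the high one for this receptor, and the other two lay near each other. Erbb3 had 9.13 CPM (7.73 to 10.7) in the control, 34.0 CPM (30.9 to 37.4) in CBP-ablated nuclei and 15.9 CPM (14.2 to 17.9) in p300-ablated nuclei, and the 3 intervals did not overlap. Erbb2, the partner receptor, had only 41, 27 and 31 UMIs in the control, CBP-ablated and p300-ablated libraries, or 2.51, 2.12 and 1.64 CPM, with overlapping intervals.

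Among the ligands, Nrg1 had 279 CPM (270.5 to 287) in the control, 218 CPM (209 to 226) in CBP-ablated nuclei and 219 CPM (213 to 226) in p300-ablated nuclei. Nrg2 had 277 CPM (269 to 286), 227 CPM (219 to 236) and 326 CPM (318 to 335) in the same order. Nrg3 had 249 CPM (242 to 257) in the control and 246 CPM (237 to 254) in the CBP-ablated library, against 497 CPM (487 to 507) in the p300-ablated library. These 3 neuregulins differed in their order of libraries, with Nrg1 highest in the control and Nrg2 and Nrg3 highest in the p300-ablated library. Nrg4 had 102, 50 and 62 UMIs, or 6.25 CPM (5.10 to 7.59), 3.92 CPM (2.91 to 5.17) and 3.28 CPM (2.52 to 4.21).

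**Figure D1:**
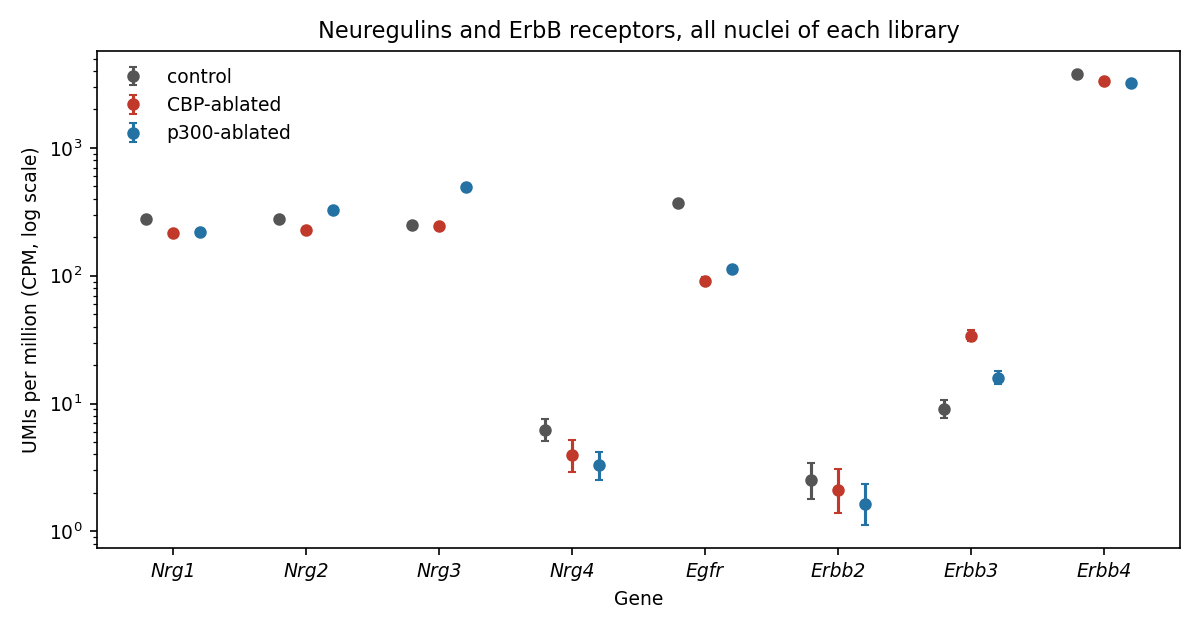
Level of each of the 8 genes over all nuclei of the control, CBP-ablated and p300-ablated libraries, in CPM on a log scale. Points are 1 library each and bars are 95% exact Poisson intervals. Egfr is highest in the control library at 373 CPM, Erbb3 in the CBP-ablated library at 34.0 CPM and Nrg3 in the p300-ablated library at 497 CPM.

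Per 100 kb of gene length Erbb4 had 353 CPM per 100 kb in the control library, Egfr 225, Erbb3 41.3 and Erbb2 9.96. In both ablated libraries Erbb3 then came before Egfr, with 154 against 55.1 CPM per 100 kb with CBP ablated and 72.1 against 67.9 with p300 ablated. Nrg2 was the highest neuregulin per length in every library, at 126 to 182 CPM per 100 kb, and Nrg1 and Nrg3 lay between 20.3 and 45.0. Divided by kb of exon in place of gene length, an alternative added after the data were seen, Erbb4 was still the highest receptor in each library, at 260.3 to 308 CPM per exon kb, but Erbb3 was below Egfr in all 3, with 5.66 against 8.08 CPM per exon kb in the CBP-ablated library.

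Compared with the control, 2 of the 8 genes differed more than 2-fold in the CBP-ablated library. Erbb3 was higher, with a log2 ratio of 1.90 (1.63 to 2.18), and Egfr was lower, with -2.03 (-2.12 to -1.94). Of the 13679 genes with at least 50 UMIs in both libraries together, 3.25% were as much higher and 4.51% as much lower. The other 6 genes had log2 ratios from -0.67 for Nrg4 to -0.02 for Nrg3. The median over the 8 was -0.27, beside 0.05 over all genes.

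In the p300-ablated library, 1 of the 8 genes was past 2-fold of the control, namely Egfr at -1.73 (-1.80 to -1.65), and 0 were past it on the higher side. Over all 14082 genes 0.980% were higher and 2.72% lower by that much. Nrg3 lay at the limit without passing it, with a log2 ratio of 1.00 (0.94 to 1.05), followed by Erbb3 with 0.80 (0.52 to 1.10) and, on the lower side, Nrg4 with -0.93 (-1.41 to -0.46). The median over the 8 genes was -0.29, beside -0.04 over all genes. These 2 comparisons share the control library.

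Set against each other, the ablated libraries differed past 2-fold in Erbb3, which was higher in the CBP-ablated library with a log2 ratio of 1.09 (0.88 to 1.31), and in Nrg3, which was lower there with -1.02 (-1.08 to -0.96). The shares over all 13785 genes were 3.52% higher and 2.83% lower. Egfr differed little between them, at -0.30 (-0.40 to -0.20), a direction that turned to 0.51 when classes were weighted as in the control, as did Nrg1, at -0.01 (-0.08 to 0.06), and Erbb4, at 0.05 (0.03 to 0.07).

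The mix of classes moved with these ratios. Astrocyte-like nuclei held 3522 of the 6079 Egfr UMIs of the control library, and without them the log2 ratio of Egfr to the control was -1.17 in CBP-ablated nuclei and -0.87 in p300-ablated nuclei. With the class levels of both libraries weighted by the class shares of the control, it was -0.23 and -0.73. This weighting leaves out the astrocyte-like class, which has no nuclei in either ablated library and held 24.0% of the UMIs of the control. In that weighting Cluster-5-like nuclei with CBP ablated, a class described below, count for more than in their own library. They held 0.66% of its UMIs against 5.56% in the control, with Egfr at 1209 CPM from 22 nuclei. The size of this class depended on how it was formed. It held 0.73% of CBP-ablated and 5.04% of control nuclei in the clustering used. Clustered without genes that differ between whole libraries, it held 9.61% and 8.07%, and by marker score 4.77% and 9.34%. The part of these 22 nuclei in the -0.23, and in the 0.51 between the ablated libraries, was not tested. Oligodendrocyte-like nuclei held 23.1% of the UMIs of the CBP-ablated library, against 5.17% in the control and 6.29% in the p300-ablated library, and they gave 87.1% of its Erbb3 UMIs. Weighted to the class shares of the control, the log2 ratio of Erbb3 in the CBP-ablated library against the control was 0.32, and against the p300-ablated library it turned to -0.16. NPC/OPC-like nuclei, with markers of neural and oligodendrocyte progenitors, held 36.0% of the UMIs of the p300-ablated library against 20.5% for the control and 8.79% with CBP ablated, and gave 60.3% of its Nrg3 UMIs. The low share with CBP ablated depended on how this class was formed. It was 10.3% of CBP-ablated and 20.5% of control nuclei in the clustering used. In a finer clustering it was 22.1% and 24.9%, and by marker score 16.4% and 19.0%. Weighted to the class shares of the control, the log2 ratio of Nrg3 in the p300-ablated library against the control was 0.50. Nrg4 had 64 of its 102 control UMIs in astrocyte-like nuclei, and without them its log2 ratio to the control turned to 0.36 with CBP ablated and to 0.10 with p300 ablated. Not all ratios shrank under the alternatives tried. Nrg1 had log2 ratios to the control of -0.36 with CBP ablated and -0.34 with p300 ablated. These ranged from -0.74 to -0.09 and from -0.66 to -0.23. In sums over a library, fewer nuclei of a class and less RNA per nucleus cannot be told apart.

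Across the named classes Erbb4, the receptor of all 4 neuregulins, was highest in neuron-like nuclei. It stood there at 9120 CPM (8787 to 9462) in the control, 7944 CPM (7718 to 8175) in CBP-ablated nuclei and 6993 CPM (6710 to 7285) in p300-ablated nuclei. Proliferating-like nuclei followed with 4795 to 5886 CPM, then NPC/OPC-like with 4255 to 5519 CPM and Cluster-5-like with 3800 to 5261 CPM, and these 3 classes overlapped over the libraries. The Cluster-5-like class is named only for the markers Kcnj6, Nell2 and Cacng4 of the study's cluster 5. COP-like nuclei, which carry the markers of committed oligodendrocyte precursors, had 2415 to 4068 CPM, the astrocyte-like nuclei of the control 3013 CPM, oligodendrocyte-like 1996 to 2943 CPM and glial progenitor-like 1849 to 2403 CPM. The glial progenitor-like cluster passed all 7 markers of its list, but its leading genes were Cdc20b, C230072F16Rik and Gfap and included Dnah6 and Wdr63, genes of motile cilia. The 5 ependymal markers summed there to 48.5, 113 and 138 CPM in the control, CBP-ablated and p300-ablated libraries, against 10.7 to 24.8 CPM in astrocyte-like and RGC/PSC-like nuclei, and the part of ciliated cells in its values was not tested. RGC/PSC-like nuclei were named from markers such as Shroom3 and Lrp2. Their name follows a cluster that the study calls an apparent mix of pluripotent stem and/or radial glial cells. Erbb4 in RGC/PSC-like nuclei had 1044 to 1179 CPM. That was within the range of microglia-like nuclei over the 3 libraries, but above the level of microglia-like nuclei of the control. In microglia-like nuclei Erbb4 stood at 526 CPM (445 to 618) in the control, 1264 CPM (1056 to 1499) in CBP-ablated nuclei and 965 CPM (810 to 1142) in p300-ablated nuclei. Since microglia-like nuclei are shallower, this does not place Erbb4 in RGC/PSC-like nuclei at the level of free RNA.

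After each nucleus was thinned to 1500 UMIs, 45.3% of 64 microglia-like nuclei of the control, 68.2% of 22 in the CBP-ablated library and 46.7% of 30 in p300-ablated nuclei still held an Erbb4 UMI. Without thinning the shares were 53.6%, 68.0% and 54.7%, at median depths of 1134, 1010 and 1664 UMIs. In neuron-like nuclei the thinned share was 97.8%, 93.4% and 98.8%. An Erbb4 UMI was thus found in many nuclei of both classes and alone does not tell them apart. Whether those in microglia-like nuclei came from expression or from free RNA was not tested.

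Egfr had a different distribution over the named classes. Astrocyte-like nuclei of the control had 900 CPM (870 to 930), with a UMI in 60.3% of nuclei after thinning (57.5% to 63.0%, exact Clopper-Pearson interval). Cluster-5-like nuclei followed with 188 to 1209 CPM, a median of 523 over the libraries, the highest value coming from 22 nuclei. RGC/PSC-like nuclei had 297 CPM (272 to 324) in the control, 193 CPM (172 to 216) in CBP-ablated nuclei and 197 CPM (182 to 213) in p300-ablated nuclei. Glial progenitor-like nuclei, which overlapped with both, had 241 CPM (215 to 269), 189 CPM (167 to 214) and 216 CPM (196 to 238). Proliferating-like nuclei had 83.3 to 121 CPM and NPC/OPC-like nuclei 41.7 to 66.6 CPM. In COP-like and oligodendrocyte-like nuclei Egfr lay between 7.58 and 24.5 CPM. The range of microglia-like nuclei was 7.10 to 21.1 CPM, from 6, 2 and 1 UMIs in the control, CBP-ablated and p300-ablated libraries. These counts are too few to set a level of free RNA.

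Erbb3, the receptor that relies on a partner kinase, was highest in oligodendrocyte-like nuclei in all 3 libraries, with no overlap with the next class. The values there were 82.9 CPM (64.6 to 105) in the control, 128 CPM (116 to 142) in CBP-ablated nuclei and 86.8 CPM (70.8 to 105) in p300-ablated nuclei. NPC/OPC-like nuclei had 11.6 to 20.02 CPM and COP-like nuclei 9.57 to 20.6 CPM, which overlapped. In neuron-like nuclei 0, 1 and 0 UMIs of Erbb3 were counted, and in microglia-like nuclei 0 in each library, where 3 UMIs would have been 10.5, 28.9 and 21.3 CPM. Thinned to 1500 UMIs, 9.43% of oligodendrocyte-like nuclei of the control (5.38% to 15.1%), 18.5% with CBP ablated (15.2% to 22.3%) and 12.5% with p300 ablated (8.18% to 18.0%) had an Erbb3 UMI. Without thinning the shares were 31.9%, 47.1% and 34.2%.

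Erbb2 was found mainly in RGC/PSC-like nuclei, at 4.05 to 9.23 CPM, and in glial progenitor-like nuclei, at 4.11 to 8.95 CPM, from 7 to 22 UMIs per library and class. Astrocyte-like nuclei of the control had 14 of its 41 Erbb2 UMIs. Neuron-like, proliferating-like and microglia-like nuclei had 0 Erbb2 UMIs in all 3 libraries, which for neuron-like nuclei allows up to 9.65, 5.10 and 9.15 CPM in the control, CBP-ablated and p300-ablated libraries by the limit of 3 UMIs. COP-like nuclei had 0, 1 and 0 UMIs and oligodendrocyte-like nuclei 1, 1 and 0. Where Erbb4 was highest, its common partner was thus not detectable at this depth.

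Per 100 kb of gene length, oligodendrocyte-like nuclei had more Erbb3 than Erbb4, with 375 to 579 against 185 to 274 CPM per 100 kb over the 3 libraries. Per kb of exon this order turned, with 13.8 to 21.3 for Erbb3 and 162 to 238 for Erbb4. In astrocyte-like nuclei Egfr had 542 CPM per 100 kb and Erbb4 280, an order that also turned per kb of exon, to 79.5 and 244. In neuron-like nuclei Erbb4 was the highest receptor by both measures, at 650.0 to 848 CPM per 100 kb and 566 to 738 CPM per exon kb.

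The neuregulins also had separate places among the named classes. Nrg1, the best studied member, was highest in COP-like nuclei, at 925 CPM (879 to 972) in the control, 246 CPM (228 to 265) in CBP-ablated nuclei and 846 CPM (794 to 900.5) in p300-ablated nuclei. Neuron-like nuclei had 460 CPM (388 to 542), 844 CPM (772 to 922) and 235 CPM (185 to 294), so the class with the most Nrg1 was COP-like in the control and p300-ablated libraries and neuron-like in the CBP-ablated library. RGC/PSC-like nuclei had 234 to 388 CPM and NPC/OPC-like nuclei 147 to 252 CPM. Oligodendrocyte-like nuclei, which stand next to COP-like nuclei in the lineage, had 166, 92.2 and 83.4 CPM. In astrocyte-like nuclei of the control Nrg1 had 59.8 CPM (52.4 to 68.0), within the range of microglia-like nuclei at 49.7 to 59.7 CPM and their intervals.

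Nrg2 was highest in RGC/PSC-like nuclei, at 564, 439 and 586 CPM, and in glial progenitor-like nuclei, at 612, 507 and 544 CPM in the control, CBP-ablated and p300-ablated libraries. Both classes stood apart from the rest, where the next, neuron-like nuclei, had 222 to 260 CPM. A UMI of Nrg2 was present in 41.3% to 50.6% of RGC/PSC-like nuclei after thinning, against 0% to 13.3% of microglia-like nuclei (65.6% to 72.4% and 2.73% to 15.1% unthinned).

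Nrg3, a ligand of ErbB4, was highest in neuron-like nuclei, at 1374 CPM (1247 to 1511) in the control, 2592 CPM (2464 to 2725) in CBP-ablated nuclei and 2145 CPM (1989 to 2310) in p300-ablated nuclei. Proliferating-like nuclei had 900 CPM (817 to 988), 601 CPM (532 to 676) and 1028 CPM (961 to 1098), and NPC/OPC-like nuclei 582 CPM (557 to 609), 463 CPM (424 to 505) and 834 CPM (812 to 856). In COP-like nuclei the level was 56.8 CPM in the control, 35.0 in CBP-ablated nuclei and 128 in p300-ablated nuclei. Oligodendrocyte-like, RGC/PSC-like, glial progenitor-like and astrocyte-like nuclei had 22.0 to 59.2 CPM. Microglia-like nuclei had 35.1 CPM in the control, 125 CPM in CBP-ablated nuclei and 135 CPM in p300-ablated nuclei, from 10, 13 and 19 UMIs. In both ablated libraries this was above the level in the first 3 of these glial classes. The microglia-like level is therefore no measure of free RNA for them.

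Nrg4, a ligand of ErbB4, was highest in astrocyte-like nuclei, with 16.4 CPM (12.6 to 20.9) from 64 of the 102 UMIs of the control library. In the other named classes it had between 0 and 19 UMIs per library and was not compared between libraries.

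**Figure D2:**
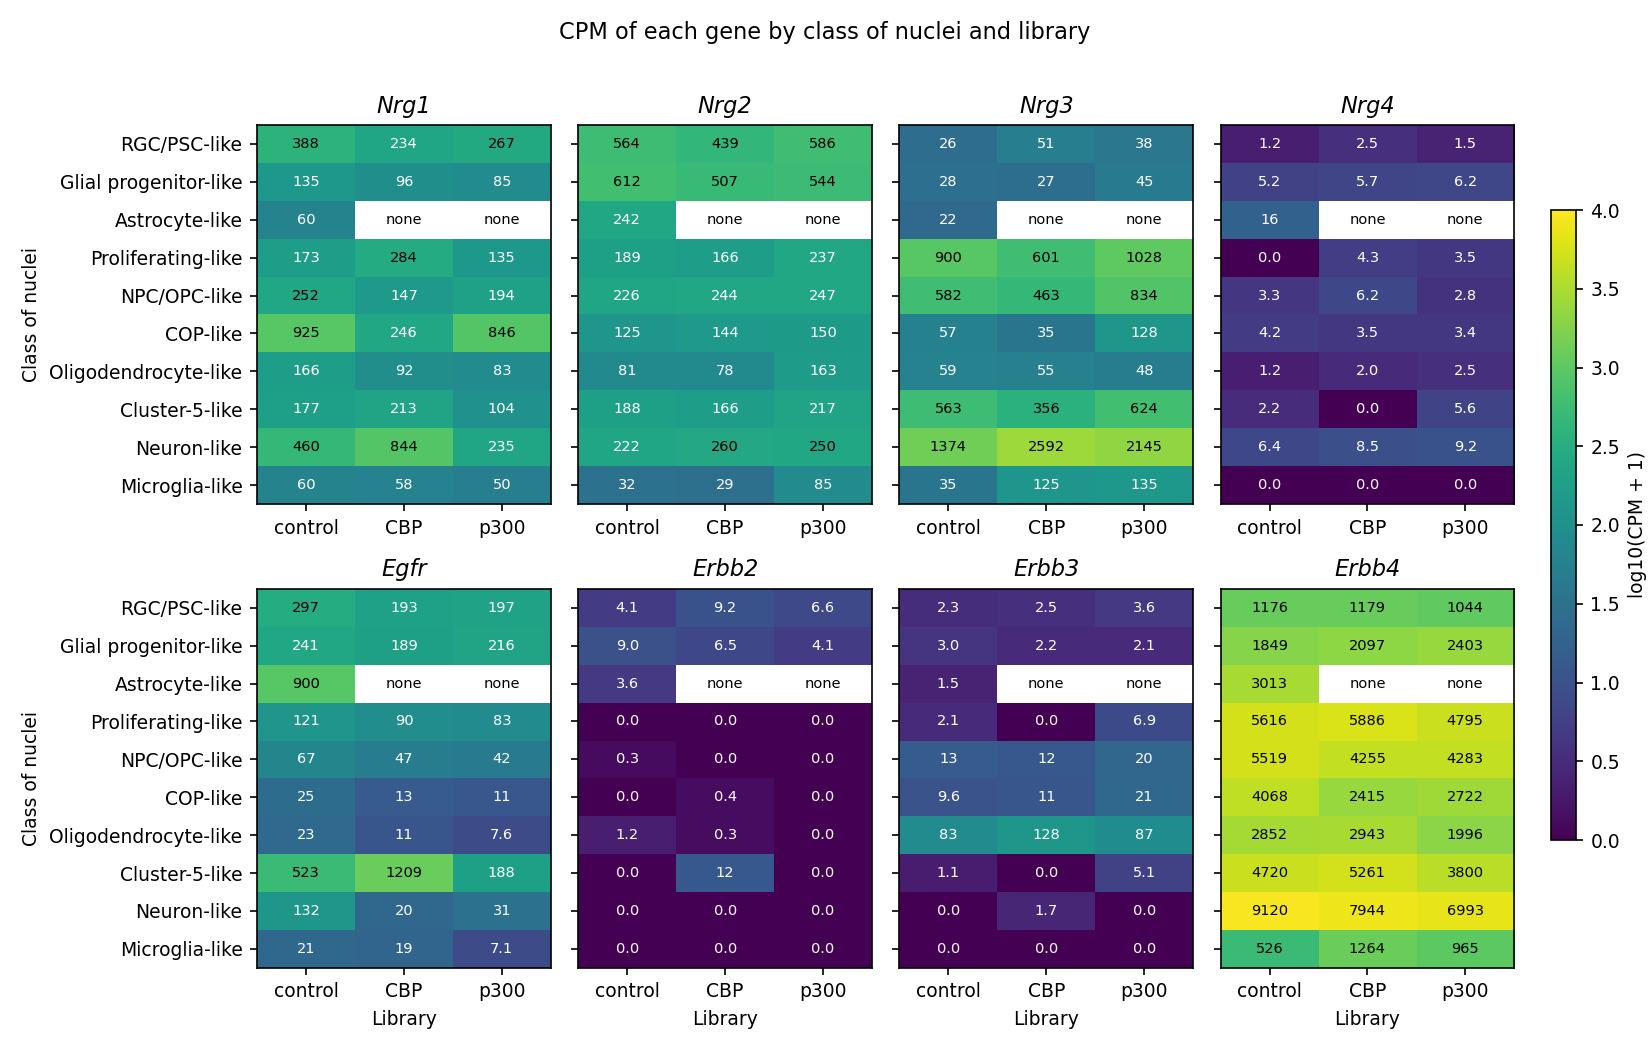
CPM of each gene in the 10 named classes of nuclei in the control, CBP-ablated (CBP) and p300-ablated (p300) libraries, with the value printed in each cell and colour on a log10(CPM + 1) scale. COP-like stands for committed oligodendrocyte precursor-like and "none" for a class with no nuclei in a library. Erbb3 is concentrated in oligodendrocyte-like nuclei at 82.9 to 128 CPM, Nrg3 in neuron-like nuclei at 1374 to 2592 CPM and Nrg2 in RGC/PSC-like and glial progenitor-like nuclei at 439 to 612 CPM.

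Within named classes, 43 pairs of a gene and a class had at least 50 UMIs in the CBP-ablated and control libraries together. Each of these classes held at least 20 nuclei in each library. Past 2-fold were 2 pairs on the higher side and 3 on the lower side, where over all pairs of a gene and a class 2.09% and 2.20% were. For the p300-ablated library against the control 2 of 42 pairs were past 2-fold higher and 3 lower, with 1.22% and 0.739% over all pairs. In the CBP-ablated against the p300-ablated library 4 of 42 pairs were higher and 3 lower, with 2.20% and 3.42% over all pairs. Few pairs lie behind each of these counts, and pairs of 1 class share their nuclei.

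The largest number of UMIs behind such a difference was that of Nrg1 in COP-like nuclei, with 1546 UMIs in 394 nuclei of the control, 696 UMIs in 610 nuclei of the CBP-ablated and 988 UMIs in 235 nuclei of the p300-ablated library. The CBP-ablated library was the low one and the other two lay close together. Its log2 ratio was -1.91 (-2.04 to -1.78) against the control and -1.78 (-1.93 to -1.64) against the p300-ablated library, whereas the p300-ablated library had -0.13 (-0.24 to -0.01) against the control. Under the alternatives tried the ratio to the control ranged from -2.17 to -1.63 for the CBP-ablated and from -0.20 to 0.01 for the p300-ablated library.

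Fewer nuclei with any Nrg1 and fewer with several UMIs were both found. Thinned to 1500 UMIs, 43.5% of 391 COP-like nuclei of the control (38.5% to 48.6%), 20.3% of 601 in the CBP-ablated (17.2% to 23.7%) and 43.0% of 235 in the p300-ablated library (36.6% to 49.6%) had at least 1 Nrg1 UMI. The share with 3 or more was 21.0%, 4.33% and 17.4%. Microglia-like nuclei had a UMI in 9.38%, 4.55% and 0%. Without thinning the COP-like shares were 56.9%, 31.5% and 52.8%, at median depths of 4194, 4561 and 4871 UMIs. The 5 nuclei with the most Nrg1 UMIs held 185, 187 and 206 of the class sums.

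**Figure D3:**
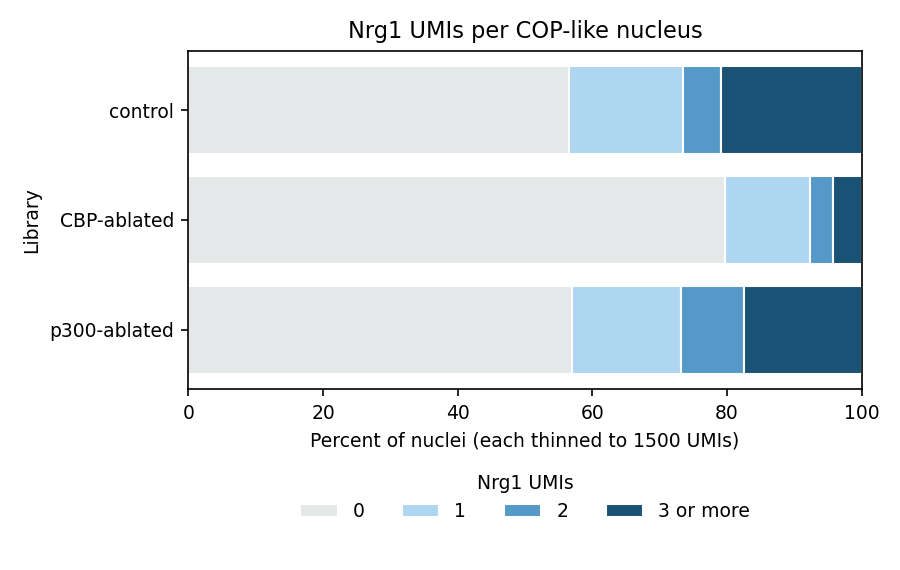
Share of COP-like nuclei with 0, 1, 2 or at least 3 UMIs of Nrg1 in each library, after each nucleus was thinned to 1500 UMIs, in percent of nuclei. The share with at least 3 UMIs is 21.0% in the control, 4.33% in CBP-ablated nuclei and 17.4% in p300-ablated nuclei.

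The make-up of the COP-like class moved with the library too. The summed level of the 7 oligodendrocyte markers in these nuclei was 1630 CPM in the control, 2630 CPM in CBP-ablated nuclei and 1537 CPM in p300-ablated nuclei, and that of the 8 NPC/OPC markers was 14631, 10611 and 17829 CPM. The 6 committed precursor markers summed to 9907, 11038 and 11105 CPM, and the 8 astrocyte markers to 2090, 843 and 1221 CPM, with 0 markers of these 4 lists at 0. In COP-like nuclei with no UMI of Mog, Mag, Mobp, Opalin or Cldn11, a selection added after the data were seen, the log2 ratio of Nrg1 to the control was -1.63 in CBP-ablated nuclei and 0.01 in p300-ablated nuclei. Erbb4 in COP-like nuclei was lower in both ablated libraries, with log2 ratios of -0.75 (-0.80 to -0.70) and -0.58 (-0.64 to -0.52) that did not pass 2-fold. Nrg2 differed little there, at 125, 144 and 150 CPM.

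Along the oligodendrocyte lineage as the classes outline it, from NPC/OPC-like through COP-like to oligodendrocyte-like, the 4 genes Nrg1, Nrg3, Erbb3 and Erbb4 had different profiles. Nrg1 was highest in the middle class in all 3 libraries. It went from 252 to 925 and then 166 CPM in the control, from 194 to 846 and 83.4 CPM with p300 ablated, and from 147 to 246 and 92.2 CPM with CBP ablated. Nrg3 dropped between the first 2 classes in each library, from 582 to 56.8, from 463 to 35.0 and from 834 to 128 CPM. Erbb3 was about level over the first 2 classes and higher in the third, and Erbb4 was highest in the first. The line from class to class is an order of marker content and not a measured course in time.

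**Figure D4:**
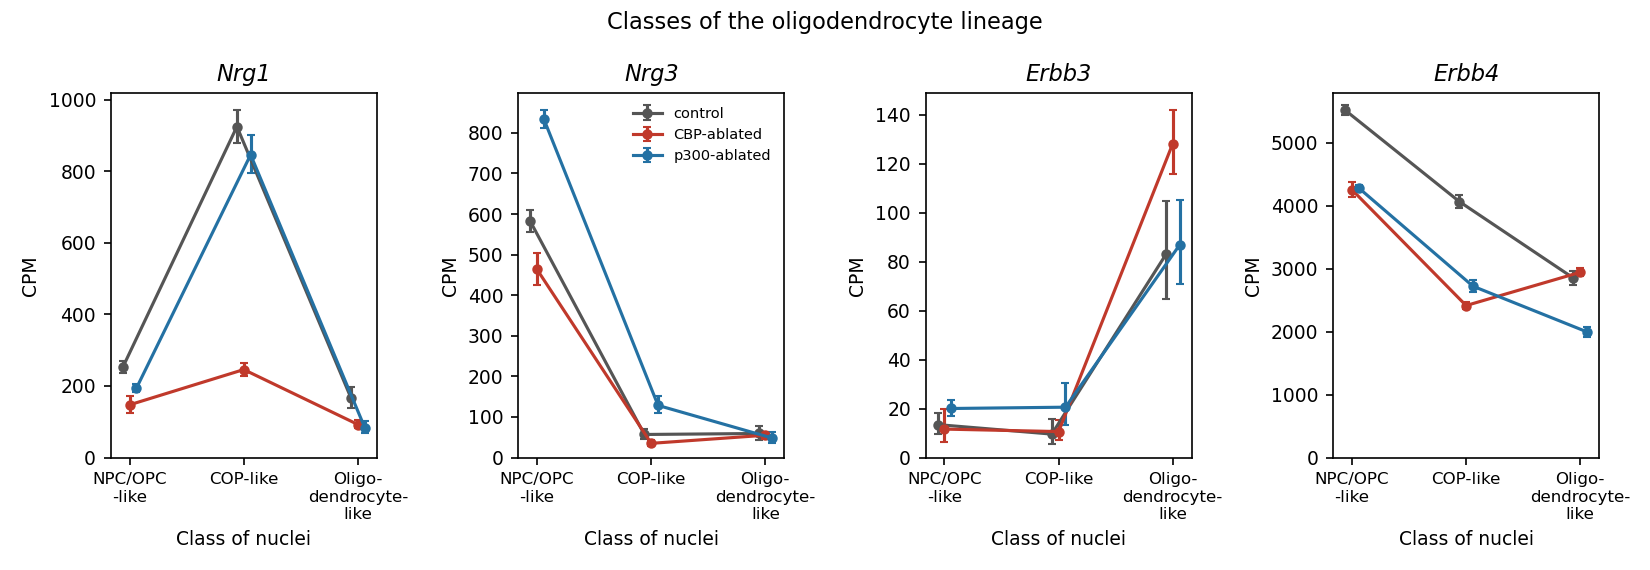
CPM of Nrg1, Nrg3, Erbb3 and Erbb4 in NPC/OPC-like, COP-like and oligodendrocyte-like nuclei of the 3 libraries, with 95% exact Poisson intervals as bars and lines that only join the classes. Nrg1 in COP-like nuclei is at 925 and 846 CPM in the control and p300-ablated libraries and at 246 CPM in the CBP-ablated library.

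In oligodendrocyte-like nuclei Nrg1 was lower in both ablated libraries, with log2 ratios to the control of -0.85 (-1.15 to -0.54) and -0.99 (-1.38 to -0.61), neither past 2-fold. Under the alternatives these ranged from -0.97 to -0.74 and from -1.17 to -0.99, so the second lay at the limit and passed it in some. Nrg2 had 68 UMIs in the control, 229 in CBP-ablated nuclei and 193 in p300-ablated nuclei, or 80.6, 77.7 and 163 CPM. The p300-ablated library was the high one, with a log2 ratio of 1.01 (0.61 to 1.43) to the control, while the CBP-ablated library had -1.07 (-1.35 to -0.78) against it. Both lay close to 2-fold and did not pass it under some alternatives, with ranges from 0.90 to 1.30 and from -1.24 to -0.97. Erbb3 in this class had a log2 ratio of 0.63 (0.26 to 1.02) in CBP-ablated nuclei and 0.07 (-0.39 to 0.53) in p300-ablated nuclei, and so did not pass 2-fold in either within its main class.

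Nrg3 was past 2-fold in COP-like nuclei, from 95 UMIs in the control, 99 in CBP-ablated nuclei and 150 in p300-ablated nuclei. Against the control the p300-ablated library had a log2 ratio of 1.18 (0.80 to 1.56), which ranged from 0.65 to 1.37 under the alternatives and so was not past 2-fold in all of them. The CBP-ablated library had -1.88 (-2.26 to -1.502) against the p300-ablated one, with a range from -2.92 to -1.66. The level in the p300-ablated library, 128 CPM, was within the interval of its microglia-like nuclei (81.2 to 211 CPM), and the part of free RNA in it was not tested. In NPC/OPC-like nuclei, which held 48.0% of the Nrg3 UMIs of the control and 60.3% of those of the p300-ablated library, Nrg3 had log2 ratios of -0.33 in CBP-ablated nuclei and 0.52 (0.44 to 0.59) in p300-ablated nuclei. In neuron-like nuclei both ablated libraries were higher than the control, at 0.92 (0.76 to 1.07) and 0.64 (0.47 to 0.82).

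Nrg1 in neuron-like nuclei had 143 UMIs in 102 nuclei of the control, 497 in 169 nuclei of the CBP-ablated and 77 in 87 nuclei of the p300-ablated library. The CBP-ablated library was higher than the p300-ablated library by a log2 ratio of 1.85 (1.497 to 2.21), which ranged from 1.27 to 1.95 under the alternatives, and against the control the ratios were 0.88 (0.60 to 1.15) and -0.97 (-1.39 to -0.56). The share of neuron-like nuclei with a Nrg1 UMI was nearly the same in the 3 libraries after thinning, at 19.6%, 21.0% and 21.7%, with wide intervals from 12.0% to 32.1%. A few nuclei carried the sums, since the 5 highest held 102 of 143, 259 of 497 and 37 of 77 UMIs. Proliferating-like nuclei had 173, 284 and 135 CPM of Nrg1, a log2 ratio of 1.07 (0.70 to 1.44) between the CBP-ablated and p300-ablated libraries. Cluster-5-like nuclei had 161, 18 and 203 Nrg1 UMIs, with a log2 ratio of 1.04 (0.26 to 1.74) between the same libraries. Under the alternatives these last 2 ratios ranged from 0.99 to 1.58 and from 0.99 to 1.73, so neither was past 2-fold in all of them.

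In neuron-like nuclei Egfr had 41 UMIs in the control, 12 in CBP-ablated nuclei and 10 in p300-ablated nuclei, for log2 ratios of -2.69 (-3.76 to -1.74) and -2.11 (-3.28 to -1.09). The levels in the ablated libraries, 20.4 and 30.5 CPM, were within the intervals of their microglia-like nuclei, which rest on 2 and 1 UMIs. In the control 5 nuclei held 28 of its 41 UMIs. The astrocyte markers summed to 3765 CPM in neuron-like nuclei of the control, against 2704 and 3152 CPM in the CBP-ablated and p300-ablated libraries, and the part of such signal in the Egfr counts was not tested.

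In COP-like nuclei Egfr had 41, 37 and 13 UMIs, a log2 ratio of -1.14 (-2.16 to -0.21) for the p300-ablated library, from few UMIs. It ranged from -2.003 to -0.59 under the alternatives, the last in nuclei with no UMI of the later oligodendrocyte markers. In oligodendrocyte-like nuclei it had 19 UMIs in the control and 32 in the CBP-ablated library, a ratio of -1.05 (-1.92 to -0.15), with 15 of the 19 from 5 nuclei, and -0.71 with classes by marker score. In Cluster-5-like nuclei Egfr had 523 CPM (477 to 573) in the control and 188 CPM (169 to 208) in the p300-ablated library, a log2 ratio of -1.48 (-1.68 to -1.28) that ranged from -1.66 to -1.34 under the alternatives. The 22 Cluster-5-like nuclei with CBP ablated had 102 Egfr UMIs, or 1209 CPM (986 to 1467), of which 5 nuclei held 66. The ratio there was 1.21 (0.88 to 1.52) to the control and 2.69 (2.35 to 3.01) to the p300-ablated library, the latter ranging from 0.58 to 2.76 under the alternatives. Assigning each nucleus by its highest marker score turned the ratio to the control to -0.57, and clustering without genes that differ between whole libraries turned it to -1.06.

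In RGC/PSC-like nuclei, where Egfr is well counted in all 3 libraries, the log2 ratios were -0.62 (-0.83 to -0.42) in CBP-ablated nuclei and -0.59 (-0.76 to -0.42) in p300-ablated nuclei. Glial progenitor-like nuclei had -0.35 and -0.16. Neither class was past 2-fold.

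Erbb4 passed 2-fold in 1 class, microglia-like nuclei of the CBP-ablated library, with a log2 ratio of 1.26 (0.91 to 1.61) from 131 UMIs in 75 nuclei, against 150 UMIs in 183 nuclei of the control, and it ranged from 0.22 to 2.67 under the alternatives. Tmeff2, an oligodendrocyte-rich gene in these data, was also higher in these nuclei, at 1485 against 323 CPM. Over all nuclei of the 2 libraries Tmeff2 was higher too, at 4922 against 1389 CPM, but Erbb4 was lower, at 3324 against 3801 CPM. Lists of markers differed in this. The 8 NPC/OPC markers were higher in microglia-like nuclei, at 3029 against 1811 CPM, but lower over all nuclei, at 9771 against 11882 CPM. The 8 astrocyte markers were lower in both, at 1129 against 1976 CPM and 2161 against 9642 CPM. The part of free RNA in the Erbb4 level of microglia-like nuclei was not tested. With p300 ablated the log2 ratio of Erbb4 in microglia-like nuclei was 0.87. In all other named classes the log2 ratios of Erbb4 to the control lay between -0.75 and 0.18 with CBP ablated and between -0.58 and 0.38 with p300 ablated.

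**Figure D5:**
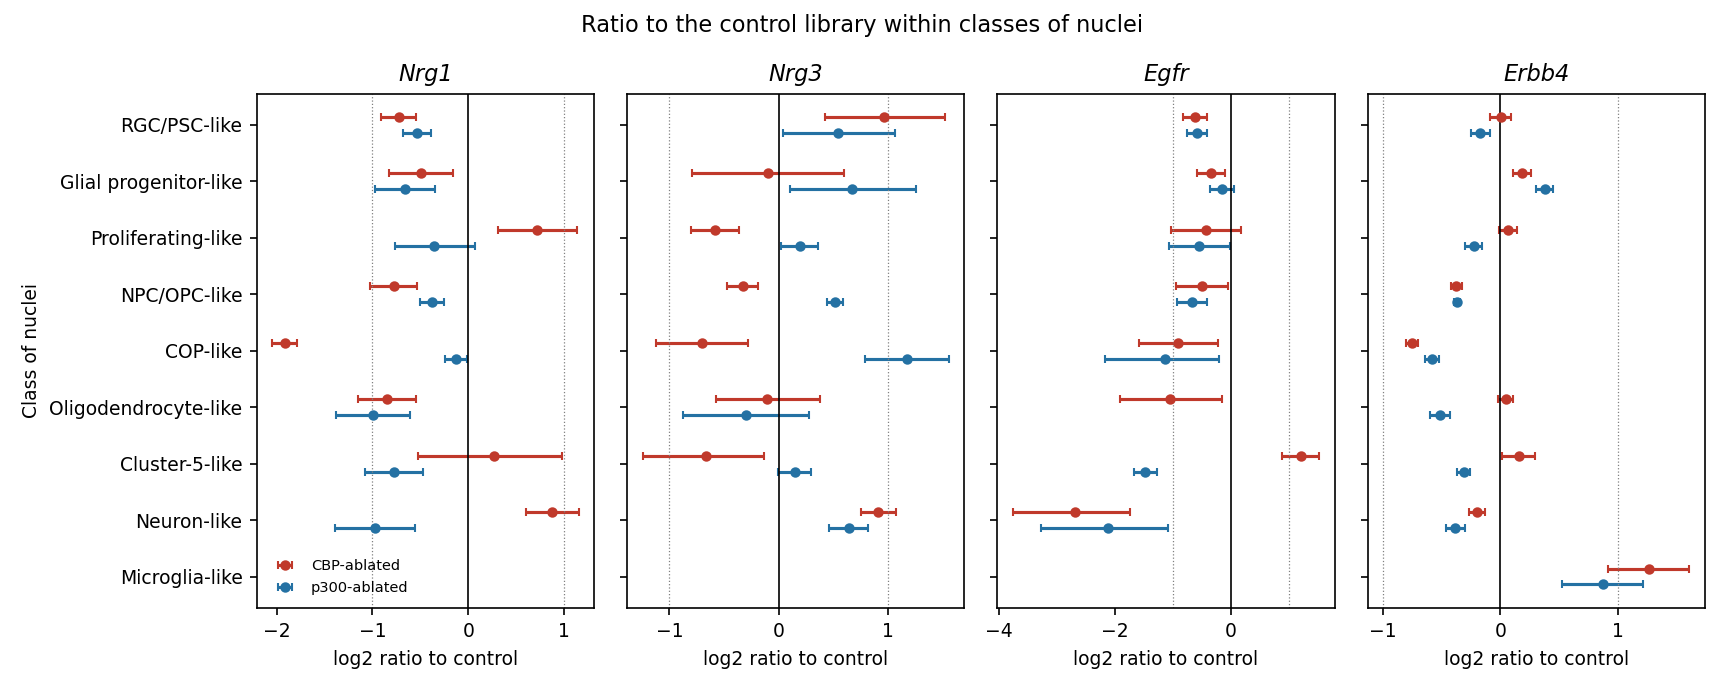
Log2 ratio of CPM to the control library within classes of nuclei for Nrg1, Nrg3, Egfr and Erbb4, in the CBP-ablated and p300-ablated libraries, with 95% conditional exact binomial intervals. Dotted lines mark 2-fold, and classes with under 50 UMIs in both libraries together have no point. Nrg1 in COP-like nuclei lies at -1.91 in CBP-ablated nuclei and -0.13 in p300-ablated nuclei.

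An unnamed cluster led by Gpr149, Draxin and Dll3, with 214, 358 and 69 nuclei in the control, CBP-ablated and p300-ablated libraries, had high levels of both main receptors. Erbb4 was at 9073, 6894 and 6949 CPM there. Egfr was at 933 CPM (859 to 1011) in the control, 210 CPM (185 to 238) in CBP-ablated nuclei and 605 CPM (509 to 713) in p300-ablated nuclei, log2 ratios to the control of -2.15 (-2.37 to -1.93) and -0.63 (-0.90 to -0.36). This cluster passed 4 of 8 NPC/OPC markers and so took no name. It is not part of the orders of classes or the counts of pairs given above.

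Of 51 further genes of the ErbB pathway, listed with earlier results of these data known, 48 had at least 50 UMIs in the CBP-ablated and control libraries together, and 2 were past 2-fold higher and 4 lower, with a median log2 ratio of -0.03. Over all genes 3.25% were higher and 4.51% lower by that much. In the p300-ablated library 0 of 48 were higher and 2 lower, with a median of -0.01, beside 0.980% and 2.72% over all genes. Between the ablated libraries 1 of 47 was higher and 2 lower, with a median of -0.05, beside 3.52% and 2.83% over all genes. Among the other ligands of ErbB receptors, Tgfa, which encodes the EGFR ligand TGF-alpha, had 108 CPM in the control, 109 CPM in CBP-ablated nuclei and 151 CPM in p300-ablated nuclei. It was highest in NPC/OPC-like nuclei at 267 to 291 CPM, a class low in Egfr, and had 4.31 to 9.06 CPM in RGC/PSC-like nuclei. Hbegf, another EGFR ligand, was highest in RGC/PSC-like nuclei at 71.8 to 103 CPM. Egf had 12.1 to 14.6 CPM over all nuclei, Areg 0 UMIs and Ereg and Epgn 1 UMI in each library. Btc was past 2-fold lower in the p300-ablated library, at -1.05 (-1.94 to -0.20), from 34 and 19 UMIs.

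Of the neuregulin-related proteins, Tmeff2, a transmembrane protein with an EGF-like domain, had 1389 CPM in the control, 4922 CPM in CBP-ablated nuclei and 1287 CPM in p300-ablated nuclei, a log2 ratio of 1.82 (1.80 to 1.85) for the CBP-ablated library against the control. Its highest class was oligodendrocyte-like, at 7754, 12184 and 6841 CPM. Weighted to the class shares of the control the ratio was 0.57. Cspg5, a brain proteoglycan also called neuroglycan C, had 176, 72.2 and 191 CPM, a log2 ratio of -1.29 (-1.40 to -1.18) in the CBP-ablated library that became -0.20 when so weighted. Adam19, a protease able to release neuregulins, had 26.5, 54.5 and 37.1 CPM, with a log2 ratio of 1.04 (0.86 to 1.21) in the CBP-ablated library and of -0.13 when weighted.

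Of 11 inhibitors and feedback genes, 3 were past 2-fold lower in the CBP-ablated library and 0 higher, beside 4.51% and 3.25% of all genes. Lrig1, which encodes a protein that promotes ErbB receptor degradation, had 298 CPM in the control, 95.1 CPM in CBP-ablated nuclei and 177 CPM in p300-ablated nuclei, a log2 ratio of -1.65 (-1.74 to -1.56) for the CBP-ablated library. Spry2, a Sprouty inhibitor of receptor tyrosine kinase signalling, had 92.1, 30.2 and 45.9 CPM, for log2 ratios of -1.61 (-1.77 to -1.45) and -1.003 (-1.13 to -0.88). Dusp6, an ERK phosphatase, had a log2 ratio of -1.04 (-1.47 to -0.63) in the CBP-ablated library, and Spry4 of -1.01 (-1.31 to -0.72) between the CBP-ablated and p300-ablated libraries. Weighted to the class shares of the control, the ratios to the control in the CBP-ablated library were -0.33 for Lrig1, -0.18 for Spry2 and 0.06 for Dusp6. So weighted, Spry2 with p300 ablated had -0.43 against the control, and Spry4 between the ablated libraries turned to 0.34. The 15 adaptors and signal carriers, 7 genes of receptor sorting and 4 receptor-binding scaffolds had 0 members past 2-fold in any comparison.

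Likeness of pattern was described by Pearson's r of log2(CPM + 10) over 37 sums of a class in a library, among 8521 genes with at least 500 UMIs. These sums share libraries and nuclei of different depth, and r is given as a description only. For Egfr the closest genes were Lrig1 (r = 0.86), Ednrb and Gm3764, for Erbb3 Tspan2 (r = 0.87), Insc and Gal3st1, and for Erbb4 C530008M17Rik (r = 0.91), 4930578G10Rik and Il1rapl1. For Nrg1 they were Ppm1l (r = 0.75), Pard6g and Pcdh7, for Nrg2 Ttll11 (r = 0.90), Stox2 and Ift81, and for Nrg3 Syt16 (r = 0.94), Usp29 and Kcnip1. Nrg4 and Erbb2 had too few UMIs, 214 and 99, for their likeness to be read. Among the 8 genes themselves the highest r was that of Nrg3 with Erbb4, 0.75, and the lowest that of Egfr with Erbb3, -0.51.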

How the data were processed

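Single-nucleus RNA of 3 libraries was counted by the authors, who deposited UMI counts per gene and nucleus. Per the labels and methods they used Cell Ranger 3.1, a GRCm38 reference for exons and introns, FastQC 0.11.9 and Seurat 2.3.4. Counting introns raises long genes. The genes, lists and settings were chosen with earlier results of these data known. Clusters of all deposited nuclei were found in R 4.3.3 by Seurat 5.3.0 from log-normalised counts (scale 10000, the 1000 most variable genes of each library, without the 8 genes, 20 components, resolution 0.6). A cluster was named where at least 60% and at least 3 markers of a list were in 10% of its nuclei and at 2 times the level of other nuclei, limits set after the clusters were seen. Scrublet in scanpy 1.11.5 called 191, 73 and 173 doublets in the control, CBP-ablated and p300-ablated libraries, which were kept. UMIs were summed per library and class in Python 3.11.15 with scipy 1.17.1, with classes of at least 20 nuclei in both libraries compared. Sums have exact Poisson and shares Clopper-Pearson intervals at 95%, and ratios conditional exact binomial intervals. A ratio was called past 2-fold with at least 50 UMIs in both libraries together. For shares, nuclei were thinned to 1500 UMIs, which left out 248, 95 and 135 nuclei. Gene spans come from GENCODE, matched for 30410 of 30559 genes. All 8 genes are named, with pathway genes past 2-fold (up to 3 a direction), the other ligands, and the 3 genes most like each member. No test was possible with 1 library per group. The code was tested on simulated data. Scaling, class mix, clustering, doublets, depth and free RNA were varied.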

Additional observations from a re-analysis of the deposited data

Results flagged for a closer look

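The log2 ratio of Egfr between the CBP-ablated and control libraries ran in opposite directions in different classes, being 1.21 in Cluster-5-like nuclei, -2.69 in neuron-like nuclei and -1.05 in oligodendrocyte-like nuclei. With 1 library per condition the difference between classes was not tested. The value in Cluster-5-like nuclei rests on 22 nuclei of the CBP-ablated library and changed sign under other ways of forming the class. The oligodendrocyte-like levels were low, as were those of microglia-like nuclei, which had 6 and 2 Egfr UMIs in the control and CBP-ablated libraries.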

How the results depend on the processing

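No paired analysis was possible because each group has 1 library. Of the values recomputed under the alternatives, 142 log2 ratios over all nuclei and 1149 within classes moved by less than their counting error. Another 73 and 110 moved by more, and 1 and 2 were counted apart as reversed. Under the class mix of the control, 18 ratios over all nuclei moved by more, 1 was counted as reversed and 5 moved by less. Not every change of sign was counted as reversed. Egfr and Erbb3 between the ablated libraries both changed sign under this mix, and Nrg4 against the control did so outside the astrocyte-like class. Of the shares of nuclei, recomputed without thinning or thinned to 1000 UMIs, 232 stayed and 216 moved. With class levels weighted to the class mix of the control, without the astrocyte-like class, the number of the 8 genes past 2-fold went from 2 to 0 in the CBP-ablated library and from 1 to 0 in p300-ablated nuclei against the control, and from 2 to 1 between the ablated libraries. In the pathway list it went from 6 to 1, from 2 to 0 and from 3 to 0 in the same order, and the 1 is Btc, at -1.29 in place of -0.27 from 22 and 34 UMIs, so that 0 of the 6 stayed past 2-fold. The Erbb3 ratio between the CBP-ablated and p300-ablated libraries turned to -0.16 under this weighting, and Nrg3 did not stay past 2-fold either. The 1 of the 8 genes past 2-fold between these libraries when so weighted is Erbb2. It was at 1.02 in place of 0.37, from 27 and 31 UMIs. In the 22 Cluster-5-like nuclei with CBP ablated, Erbb2 had 1 UMI, or 11.85 CPM. Outside the astrocyte-like class 3 pathway genes were past 2-fold in the CBP-ablated library, and 0 of the 8 genes and 0 pathway genes in the p300-ablated library.

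For the p300-ablated library against the control the 8 genes, with 1 past 2-fold as reported, had 2 when centred on the median of all genes, 3 after thinning to 1500 UMIs, 2 by the mean CPM of nuclei and 5 at 1.5-fold. The pathway list had 1 when so centred and 1 at a minimum of 100 UMIs. Between the ablated libraries the 8 genes had 1 when centred on all genes and 0 when centred on genes of like length, after thinning or by the mean CPM of nuclei, Nrg3 at -1.02 and Erbb3 at 1.09 being close to the limit. Of pairs of a gene and a class past 2-fold, assigning nuclei by marker score gave 9 in place of 5 for the CBP-ablated and 12 in place of 5 for the p300-ablated library against the control, a minimum of 100 UMIs gave 3 for each, and a minimum of 20 UMIs gave 10 for the p300-ablated library. The shares over all genes or all pairs under these other settings are not given here. The counts under them are therefore not read as a result about the 8 genes or the pathway list. Egfr in Cluster-5-like nuclei with CBP ablated turned to -0.57 with classes by marker score and to -1.06 without genes that differ between libraries. Apart from weighting by class mix, which changes the mix by construction, the cause of these changes was not tested. Depth limits Nrg4 and Erbb2, and Erbb3 in most classes.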
